A study of Sus scrofa with 12 samples.

Results

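The genes described here encode integrins and the focal adhesion proteins that tie them to actin, measured in porcine aortic valve interstitial cells (paVICs). Members were the rows of the count table whose symbol was that of a numbered alpha integrin, of ITGAV, of a beta integrin, or of a listed adhesion plaque protein, and which held at least 60 counts summed over the 12 libraries. This gave 38 of 31908 genes, and all 38 were among the 13216 genes that passed the filter on low counts and were tested. They comprised 10 alpha integrins, 6 beta integrins, and 22 plaque proteins. Cells were wild type and were cultured for 24 h in medium with 1% bovine growth serum under 1 of 4 treatments (n = 3 per group). These were vehicle only, 10 μM lysophosphatidylcholine (LPC, a lipid of oxidized low-density lipoprotein that causes these cells to calcify in culture), 60 μM dantrolene (an inhibitor of the ryanodine receptor calcium channels), and LPC + dantrolene at those doses. All groups contained equal amounts of DMSO and ethanol, the solvents of the agents. The paper describes experiments on different days, each with a separate isolation of cells pooled from several hearts and 1 replicate per group. The libraries of a group therefore differ in their animals. The labels give only replicate numbers, and the same-numbered libraries of the 4 groups were taken to share an isolation.

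Integrins are heterodimers of an alpha and a beta chain that bind matrix proteins outside the cell. Talin and kindlin bind the beta tail and activate the receptor, vinculin and the filamins and actinins connect it to actin, and the kinases FAK (PTK2) and SRC signal from the same plaque. In valve interstitial cells, which are the fibroblasts of the leaflet, these adhesions anchor the contractile stress fibers of the activated myofibroblast and let the cell sense the stiffness of its matrix.

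Total counts ranged from 16489684 to 24105935 per library, and the 38 members held between 2.45% and 3.77% of them. Expression is given as CPM, the counts of a gene per 1e+06 counts of its library after TMM scaling. A count of 3 was worth between 0.114 and 0.186 CPM, below which a gene cannot be told from 0 by counting error alone, and levels of different genes were not compared because transcript lengths were not used here. All 11 markers of fibroblasts and valve interstitial cells were present, and the smooth muscle markers, which activated interstitial cells share, summed to between 9489 and 35480 CPM. The endothelial markers summed to 105 to 172 CPM. Of these, ERG lay at 39.7 to 87.2 CPM, PECAM1 at 23.7 to 44.2 CPM, CDH5 at 13.0 to 37.7 CPM, and TIE1 at 5.31 to 11.3 CPM. VWF, TEK, and CLDN5 were at no more than 3.89 CPM and KDR at no more than 0.238 CPM. The leukocyte markers summed to 39.2 to 60.4 CPM, with ITGAL at 13.6 to 31.6 CPM and CD14 at 10.3 to 24.5 CPM, while PTPRC and CD3E had no count in any library. The platelet markers summed to 45.7 to 93.0 CPM. Replicate 2 of LPC + dantrolene stood apart. It had the smallest TMM factor (0.863, against 0.879 to 1.15 in the other libraries) and the fewest genes detected (13371), and it was the lowest of the 12 libraries for 24.4% and the highest for 20.7% of all genes tested. Its CYP1A1 (22.6 CPM) and ANGPTL4 (145 CPM) were above every vehicle library (at most 0.467 and 51.2 CPM). So were its CYP1B1 (385 CPM) and PDK4 (2.98 CPM), against at most 40.8 and 1.58 CPM with vehicle. Replicates 1 and 3 of its group had more CYP1A1 (43.9 and 48.8 CPM), CYP1B1 (945 and 2493 CPM), and PDK4 (10.4 and 10.1 CPM), and less ANGPTL4. Results that rest on this library are given with and without it.

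A gene was called where its adjusted p was under 0.05 in the quasi-likelihood test of edgeR, with the Benjamini-Hochberg adjustment made over all genes tested, and every adjusted p in the text comes from that test unless another is named. The deposited counts had already been adjusted for isolation by the authors, which used up degrees of freedom unseen by the test and can make adjusted p too small. In a bulk library, fewer cells that express a gene and less RNA per cell cannot be told apart.

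LPC against vehicle asks what the lipid changes, and the comparisons with dantrolene ask what the inhibitor changes alone and in the presence of the lipid. LPC raised 3 members, ITGA1, ITGAV, and ITGB8, and lowered none, a share of members near the background, as 8.54% of all genes tested were called higher and 0.144% lower (8.69% in either direction). Dantrolene alone lowered 1 member, FLNC, against a background of 1.26% lower and 7.54% higher (8.80% in all). LPC + dantrolene lowered 1 member against vehicle, SORBS2 (background 0.900% lower and 6.23% higher, 7.14% in all). Against LPC alone, LPC + dantrolene lowered ITGA1 and SORBS2, 2 of 38 members where 0.288% of all genes were called lower and 0.219% higher (0.507% in all). The paper had already named SORBS2 as lower in this comparison of the same libraries, so its call repeats a known result and the share is not independent of it. Against dantrolene alone no member was called (background 0.0151% higher and 0.00757% lower, 0.0227% in all), 1 member lay lower at an unadjusted p under 0.05, and DESeq2's Wald test also called 0. The interaction (the effect of LPC among cells given dantrolene less that among cells without it) was called lower for ITGA1 and ITGB8, 2 of 38 members where 4.49% of all genes were called lower and 0.159% higher (4.65% in all). At an unadjusted p under 0.05, the members higher and lower numbered 6 and 2 with LPC, 2 and 8 with dantrolene, 2 and 5 with LPC + dantrolene, 2 and 6 for LPC + dantrolene against LPC, and 1 and 6 for the interaction. DESeq2's Wald test called 3 members higher with LPC, 0 with dantrolene, 1 lower with LPC + dantrolene, 2 lower for LPC + dantrolene against LPC, and 1 lower for the interaction. The 3 comparisons with vehicle share the vehicle libraries and are set side by side without a test between them.

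The median log2 fold change of the 38 members was −0.35 with LPC, −0.37 with dantrolene, and −0.27 with LPC + dantrolene, against −0.18, −0.11, and −0.08 for all genes tested. With total counts in place of TMM the medians of all genes moved to −0.00232, 0.13, and 0.12, and those of the members to −0.18, −0.14, and −0.067, so the members' medians lay below those of all genes under either scaling. Of the 22 plaque proteins, 19 had a log2 fold change below 0 with LPC, 20 with dantrolene, and 21 with LPC + dantrolene (18, 19, and 20 with total counts). Of all 13216 genes tested, 8364, 7746, and 7678 were below 0 in the same comparisons. Of the 10 alpha integrins, 6 were above 0 with LPC and 6 with dantrolene under each scaling, and with LPC + dantrolene 5 were above 0 by TMM and 7 by total counts. Of the 6 beta integrins, 2 were above 0 with LPC and 4 with dantrolene under each scaling, and with LPC + dantrolene 3 were above 0 by TMM and 4 by total counts. These are counts of signs, of which few passed the test, and no test of the lists was made.

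**Figure D1:**
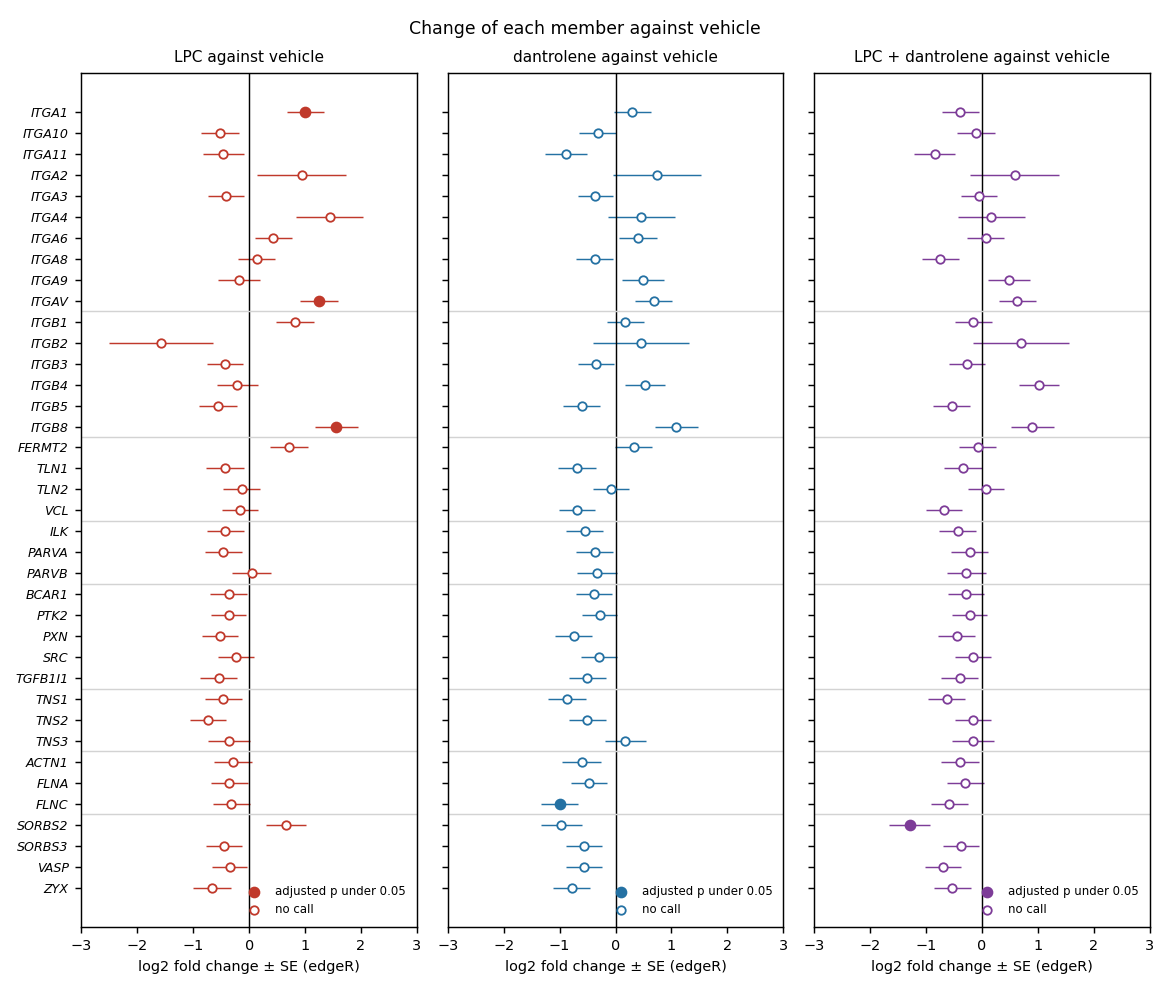
Log2 fold change (x axis, ± SE of edgeR's fit) of each of the 38 members against vehicle for LPC, dantrolene, and LPC + dantrolene (n = 3 libraries per group), with grey lines between the roles and filled points for an adjusted p under 0.05. Filled points are ITGA1, ITGAV, and ITGB8 with LPC, FLNC with dantrolene, and SORBS2 with LPC + dantrolene, and most plaque proteins lie left of 0 in all 3 panels.

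Among the alpha integrins, ITGA1 and ITGAV rose with LPC. ITGA1, the alpha chain of the collagen receptor alpha1beta1, lies on chromosome 16 from 32130265 to 32309917 (Sscrofa11.1). It measured 77.3, 40.9, and 49.2 CPM in the vehicle libraries of replicates 1, 2, and 3, and 84.7, 122, and 129 CPM with LPC. With dantrolene it measured 72.5, 70.7, and 62.9 CPM, and with LPC + dantrolene 57.0, 26.6, and 44.4 CPM. Each LPC library was thus above every library of the other 3 groups, and each LPC + dantrolene library was below every dantrolene library. The mean was 111.9 ± 23.8 CPM with LPC vs. 55.8 ± 19.1 CPM with vehicle (log2 fold change 1.00 ± 0.33 SE, adjusted p = 0.0377). With LPC + dantrolene it was 42.7 ± 15.3 CPM, lower than with LPC alone (log2 fold change −1.39 ± 0.33, adjusted p = 0.0202) and not called against vehicle (−0.39 ± 0.33, adjusted p = 0.768) or against the 68.7 ± 5.08 CPM of dantrolene (−0.69 ± 0.33, unadjusted p = 0.0392, adjusted p = 1). The interaction was −1.69 ± 0.46 (adjusted p = 0.0171). The call with LPC was lost without vehicle replicate 2 (adjusted p = 0.301) or 3 (0.182), without LPC replicate 2 (0.158) or 3 (0.189), and with the isolation as a block (0.0551). The call against LPC was lost with total counts (0.191), with only the groups compared in the fit (0.197), with the block (0.0721), and without LPC replicate 2 (0.238) or 3 (0.206) or LPC + dantrolene replicate 3 (0.113), and that of the interaction without vehicle replicate 2 (0.114) or 3 (0.0518), LPC replicate 2 (0.101) or 3 (0.0523), or dantrolene replicate 2 (0.0984).

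ITGAV, the alpha chain of the vitronectin receptors and of the integrins that activate latent TGF-β, lies on chromosome 15 from 91604666 to 91711843. It measured 96.1, 60.9, and 49.3 CPM with vehicle, 142, 186, and 162 CPM with LPC, 92.2, 129, and 110 CPM with dantrolene, and 128, 54.7, and 138 CPM with LPC + dantrolene. All LPC libraries were above all vehicle and all LPC + dantrolene libraries, while the dantrolene group overlapped vehicle only at the edge and LPC + dantrolene replicate 2 lay within the vehicle range. The rise with LPC was from 68.8 ± 24.4 to 163.3 ± 22.3 CPM (log2 fold change 1.25 ± 0.33, adjusted p = 0.00602). With dantrolene the mean was 110.4 ± 18.4 CPM (0.68 ± 0.33, adjusted p = 0.271) and with LPC + dantrolene 106.7 ± 45.2 CPM (0.63 ± 0.33, adjusted p = 0.381). The interaction was −1.30 ± 0.47 (adjusted p = 0.100). The call with LPC was lost without vehicle replicate 2 (adjusted p = 0.0811) or 3 (0.0878) or without LPC replicate 2 (0.0716).

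The alpha integrin with the most counts was ITGA8, whose product pairs with beta1 and binds fibronectin, nephronectin, and osteopontin. It measured 1519, 1066, and 1413 CPM with vehicle, 991, 1519, and 1888 CPM with LPC, 1383, 779, and 920.0 CPM with dantrolene, and 1018, 771, and 591 CPM with LPC + dantrolene. All 3 LPC + dantrolene libraries were below all vehicle libraries, and the other groups overlapped vehicle. None of its differences was called, with log2 fold changes against vehicle of 0.14 ± 0.33 with LPC (adjusted p = 0.849), −0.38 ± 0.33 with dantrolene (adjusted p = 0.679), and −0.75 ± 0.33 with LPC + dantrolene (adjusted p = 0.230). The difference of LPC + dantrolene from LPC was −0.89 ± 0.33 (adjusted p = 0.398).

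The other 7 alpha integrins had log2 fold changes from −0.52 to 1.44 with LPC, from −0.88 to 0.74 with dantrolene, and from −0.85 to 0.59 with LPC + dantrolene, and none was called. ITGA4, the alpha chain of the VCAM1 receptor, was nearer the floor, with 2.10, 1.34, and 0.523 CPM with vehicle and 2.25, 5.27, and 3.34 CPM with LPC (log2 fold change 1.44 ± 0.59, adjusted p = 0.152). Its LPC libraries were all above its vehicle libraries. ITGA11, a collagen receptor of fibroblasts, had the largest spread between replicates of all members (SD of 0.749 on the log2 scale within groups, against a median of 0.419 for the members and 0.398 for all genes). It measured 500, 248, and 539 CPM with vehicle, 170, 328, and 434 CPM with LPC, 395, 143, and 159 CPM with dantrolene, and 150, 418, and 147 CPM with LPC + dantrolene. Each treated group thus held a library well below the vehicle range and another within it. ITGA4 and ITGA11 were singled out after their values were seen.

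Among the beta integrins, ITGB8 rose with LPC. ITGB8 pairs with ITGAV and presents latent TGF-β for activation, and its gene lies on chromosome 9 from 89342245 to 89450701. It measured 4.96, 5.84, and 3.31 CPM with vehicle, 14.1, 17.6, and 9.93 CPM with LPC, 7.83, 11.2, and 11.0 CPM with dantrolene, and 9.84, 3.35, and 13.0 CPM with LPC + dantrolene. All LPC and all dantrolene libraries were above all vehicle libraries, and LPC + dantrolene was split, with replicate 2 at the low end of the vehicle range. The rise with LPC was from 4.70 ± 1.28 to 13.9 ± 3.86 CPM (log2 fold change 1.56 ± 0.39, adjusted p = 0.00254), and it was lost only without LPC replicate 2 (adjusted p = 0.0722) among the 14 alternatives run. With dantrolene the mean was 10.0 ± 1.89 CPM (1.09 ± 0.38, adjusted p = 0.0608), and with LPC + dantrolene 8.74 ± 4.93 CPM (0.90 ± 0.38, adjusted p = 0.194). The interaction was −1.75 ± 0.54 (adjusted p = 0.0390). That call was lost in 11 of 18 alternatives, with adjusted p up to 0.233, among them the block (0.121), total counts (0.109), and DESeq2 (0.0588). The libraries without which it was lost were all 3 of vehicle (0.0716 to 0.107), LPC replicates 1 (0.119) and 2 (0.233), dantrolene replicates 2 (0.165) and 3 (0.0768), and LPC + dantrolene replicate 2 (0.0575).

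ITGB1, the beta chain shared by most collagen, laminin, and fibronectin receptors, was the beta integrin with the most counts and lies on chromosome 10 from 56078393 to 56130608. It measured 1775, 1162, and 1164 CPM with vehicle, 2148, 2614, and 2477 CPM with LPC, 1491, 1671, and 1459 CPM with dantrolene, and 1661, 597, and 1418 CPM with LPC + dantrolene. All LPC libraries were above all libraries of the other groups. The difference with LPC, from 1367 ± 354 to 2413 ± 239 CPM (log2 fold change 0.82 ± 0.34), was not called (adjusted p = 0.146), although it was with only the groups compared in the fit (adjusted p = 0.0218). With dantrolene it was 0.17 ± 0.33 (adjusted p = 0.856) and with LPC + dantrolene −0.16 ± 0.33 (adjusted p = 0.953). The difference of LPC + dantrolene from LPC was −0.98 ± 0.34 (adjusted p = 0.271), and the interaction was −1.15 ± 0.47 (adjusted p = 0.181).

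The other 4 beta integrins were not called. ITGB3 and ITGB5, which pair with ITGAV, had log2 fold changes of −0.43 ± 0.32 and −0.55 ± 0.34 with LPC, −0.35 ± 0.32 and −0.61 ± 0.34 with dantrolene, and −0.26 ± 0.32 and −0.54 ± 0.34 with LPC + dantrolene (adjusted p from 0.387 to 0.891), opposite in sign to ITGAV itself in each. ITGB4, the beta chain of the hemidesmosome, measured 7.63, 18.2, and 7.96 CPM with vehicle, 14.7, 6.79, and 7.66 CPM with LPC, 10.3, 20.6, and 17.7 CPM with dantrolene, and 19.8, 16.9, and 31.8 CPM with LPC + dantrolene. All its LPC + dantrolene libraries were above all its LPC libraries (log2 fold change 1.23 ± 0.37, adjusted p = 0.124), and against vehicle it differed by 1.02 ± 0.36 (adjusted p = 0.0785). ITGB2, the beta chain of leukocyte integrins, lay at 0 to 1.80 CPM. ITGB3, ITGB4, and ITGB5 were singled out after their values were seen. Of the beta integrins under the minimum of 60 counts, ITGB7 had 51 counts over the 12 libraries and ITGB6 had 0.

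**Figure D2:**
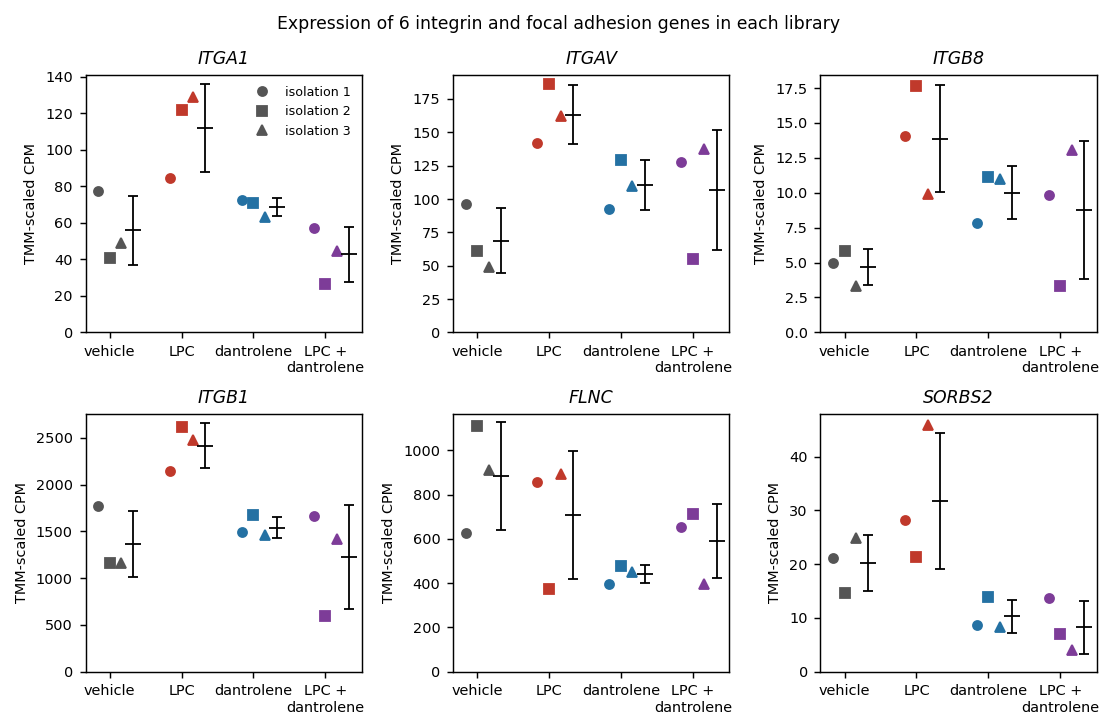
TMM-scaled CPM (y axes, linear from 0) of 6 members in each of the 12 libraries, with 1 marker shape per isolation and the mean ± SD of 3 libraries in black beside each group. By group mean, ITGA1, ITGAV, ITGB8, and ITGB1 are highest with LPC, with mean ITGAV at 163.3 CPM against 68.8 CPM with vehicle. By group mean FLNC is lowest with dantrolene, although its lowest single library is LPC replicate 2, and SORBS2 is low in both groups with dantrolene. Replicate 2 of LPC + dantrolene (square) is the lowest of its group for the 4 integrins.

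Among the proteins that activate integrins and bind vinculin, no member was called in any comparison. VCL, vinculin, had the most counts of this role. It measured 2313, 2617, and 2380.4 CPM with vehicle, 2134, 1616, and 2793 CPM with LPC, 1526, 1544, and 1441 CPM with dantrolene, and 1721, 1602, and 1242 CPM with LPC + dantrolene. All libraries with dantrolene, with or without LPC, were below all vehicle libraries, and the LPC group spanned the vehicle range. The log2 fold changes were −0.16 ± 0.32 with LPC (adjusted p = 0.823), −0.70 ± 0.32 with dantrolene (adjusted p = 0.231), and −0.68 ± 0.32 with LPC + dantrolene (adjusted p = 0.289). FERMT2 (kindlin-2), which binds the beta tail beside talin, was above 0 with LPC and with dantrolene, where the rest of this role was below 0 by TMM (TLN2 was above 0 with total counts), and at −0.08 ± 0.34 with LPC + dantrolene. It measured 386, 304, and 260 CPM with vehicle, 488, 491, and 583 CPM with LPC, 363, 452, and 375 CPM with dantrolene, and 442, 132, and 326 CPM with LPC + dantrolene, so that LPC did not overlap vehicle (log2 fold change 0.72 ± 0.34, adjusted p = 0.253). TLN1 (talin-1) had log2 fold changes of −0.43 ± 0.34, −0.68 ± 0.34, and −0.34 ± 0.34 in the 3 treatments (adjusted p from 0.295 to 0.832), and TLN2 stayed within −0.13 to 0.07. FERMT2, TLN1, and TLN2 were singled out after their values were seen.

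In the complex of integrin-linked kinase and the parvins, which links the beta tail to actin, no member was called. ILK had the most counts, with 447, 652, and 638 CPM with vehicle, 336, 485, and 471 CPM with LPC, 424, 378, and 384 CPM with dantrolene, and 278, 656, and 352 CPM with LPC + dantrolene. All dantrolene libraries were below all vehicle libraries, and LPC + dantrolene replicate 2 was the highest of the 12 libraries. Its log2 fold changes were −0.43 ± 0.33 with LPC (adjusted p = 0.597), −0.55 ± 0.33 with dantrolene (adjusted p = 0.455), and −0.43 ± 0.33 with LPC + dantrolene (adjusted p = 0.709). PARVA and PARVB had log2 fold changes between −0.46 and 0.05.

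The 5 kinases and scaffolds were below 0 in all 3 comparisons with vehicle under TMM, RLE, and total-count scaling, and none was called. Their medians were −0.37 with LPC, −0.39 with dantrolene, and −0.28 with LPC + dantrolene. TGFB1I1 (Hic-5), a paxillin relative induced by TGF-β, had the most counts. It measured 332, 485, and 471 CPM with vehicle, 338, 202, and 345 CPM with LPC, 365, 253, and 288 CPM with dantrolene, and 249, 475, and 250.3 CPM with LPC + dantrolene, so each treated group overlapped vehicle. The log2 fold changes were −0.54 ± 0.33, −0.51 ± 0.33, and −0.40 ± 0.33 (adjusted p = 0.480, 0.511, and 0.748). Of the rest, PXN (paxillin, the scaffold of the plaque) had the value farthest from 0, −0.75 ± 0.33 with dantrolene (adjusted p = 0.183), and PTK2 (FAK) lay between −0.37 and −0.22.

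The tensins, which bind the beta tail and actin in the more central adhesions, were not called. TNS1 had the most counts and the tightest vehicle libraries of all members (SD of 0.031 on the log2 scale), with 1709, 1671, and 1744 CPM. It measured 1273, 805, and 1647 CPM with LPC, 1281, 680, and 837 CPM with dantrolene, and 854, 1652, and 798 CPM with LPC + dantrolene. Every treated library was below every vehicle library, LPC + dantrolene replicate 2 by the least margin of its group. The log2 fold changes were −0.46 ± 0.34 with LPC (adjusted p = 0.574), −0.87 ± 0.34 with dantrolene (adjusted p = 0.107), and −0.63 ± 0.34 with LPC + dantrolene (adjusted p = 0.402). TNS2 was −0.74 ± 0.33 with LPC (adjusted p = 0.208), and TNS3 lay between −0.36 and 0.17.

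Among the proteins that crosslink actin, FLNC fell with dantrolene. FLNC encodes filamin C, the muscle filamin, and lies on chromosome 18 from 19759734 to 19787616. It measured 625, 1111, and 913 CPM with vehicle, 857, 374, and 895 CPM with LPC, 395, 476, and 452 CPM with dantrolene, and 654, 714, and 398 CPM with LPC + dantrolene. All dantrolene libraries were below all vehicle libraries, whereas LPC and LPC + dantrolene overlapped vehicle. The fall with dantrolene was from 883 ± 244 to 441 ± 41.7 CPM (log2 fold change −1.003 ± 0.34, adjusted p = 0.0464). With LPC it was −0.32 ± 0.34 (adjusted p = 0.678), with LPC + dantrolene −0.58 ± 0.34 (adjusted p = 0.482), and the interaction was 0.74 ± 0.48 (adjusted p = 0.526). The call was lost in 9 of 14 alternatives, namely DESeq2 (adjusted p = 0.0645), RLE (0.0747), total counts (0.174), the isolation as a block (0.0975), and without vehicle replicate 2 (0.322) or 3 (0.192) or dantrolene replicate 1 (0.205), 2 (0.149), or 3 (0.142). With only the vehicle and dantrolene libraries in the fit, 7 members were called with dantrolene, 6 lower and 1 higher, where 2.29% of all genes in that fit were called lower and 9.87% higher. The summed smooth muscle markers lay between 23080 and 35480 CPM with vehicle and between 15660 and 23060 CPM with dantrolene. They lay between 16310 and 26700 CPM with LPC, where FLNC was not called, and between 9489 and 32850 CPM with LPC + dantrolene. Their part in the result was not tested.

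FLNA (filamin A), the filamin of non-muscle cells and the member with the most counts, measured 18129.8, 19847, and 21108 CPM with vehicle, 16460.4, 10654, and 19094 CPM with LPC, 14473, 14483, and 13652 CPM with dantrolene, and 10710.3, 26088, and 11347 CPM with LPC + dantrolene. All dantrolene libraries were below all vehicle libraries and lay close together, and in the LPC + dantrolene group replicate 2 was the highest of the 12 libraries while replicates 1 and 3 were below all vehicle libraries. No difference was called (log2 fold change −0.35 ± 0.33 with LPC, adjusted p = 0.645, −0.47 ± 0.33 with dantrolene, adjusted p = 0.552, and −0.30 ± 0.33 with LPC + dantrolene, adjusted p = 0.866). ACTN1 (alpha-actinin 1) lay at −0.30, −0.61, and −0.40 in the same comparisons.

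Among the actin regulators and vinculin-binding adaptors, SORBS2 was lower with LPC + dantrolene. SORBS2 (ArgBP2), an adaptor that binds vinculin and actin at stress fibers and in the Z-disc of muscle, lies on chromosome 15 from 46585599 to 46910679. It measured 21.2, 14.6, and 24.8 CPM with vehicle, 28.1, 21.3, and 45.8 CPM with LPC, 8.70, 13.9, and 8.35 CPM with dantrolene, and 13.6, 7.02, and 4.06 CPM with LPC + dantrolene. All libraries with dantrolene, with or without LPC, were below all libraries without it, while LPC and vehicle overlapped although each LPC library was above the vehicle library of its own isolation. Against vehicle, LPC + dantrolene lowered it from 20.2 ± 5.18 to 8.24 ± 4.90 CPM (log2 fold change −1.29 ± 0.37, adjusted p = 0.0130), and against the 31.8 ± 12.6 CPM of LPC by 1.95 ± 0.37 on the log2 scale (adjusted p = 0.00106). With dantrolene alone the mean was 10.3 ± 3.09 CPM (−0.97 ± 0.36, adjusted p = 0.0875), and with LPC alone the difference was 0.65 ± 0.36 (adjusted p = 0.388). The interaction was −0.98 ± 0.51 (adjusted p = 0.370), so an effect of dantrolene that depends on LPC was not shown. The call against LPC was lost with total counts (adjusted p = 0.0750) and without LPC + dantrolene replicate 3 (0.0568). The call against vehicle was lost with total counts (0.143), with only the groups compared in the fit (0.158), with the block (0.0532), and without vehicle replicate 1 (0.0717) or 3 (0.121) or LPC + dantrolene replicate 3 (0.287).

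ZYX (zyxin), which brings VASP to tensed actin, had the most counts of this role. It measured 651, 918, and 859 CPM with vehicle, 625, 297, and 610 CPM with LPC, 563, 394, and 449 CPM with dantrolene, and 497, 746, and 437 CPM with LPC + dantrolene. All LPC and all dantrolene libraries were below all vehicle libraries, and LPC + dantrolene overlapped vehicle through replicate 2. Its log2 fold changes were −0.66 ± 0.33 with LPC (adjusted p = 0.310), −0.79 ± 0.33 with dantrolene (adjusted p = 0.162), and −0.53 ± 0.33 with LPC + dantrolene (adjusted p = 0.554). VASP and SORBS3 (vinexin) lay between −0.70 and −0.35 in the 3 comparisons, and neither was called.

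**Figure D3:**
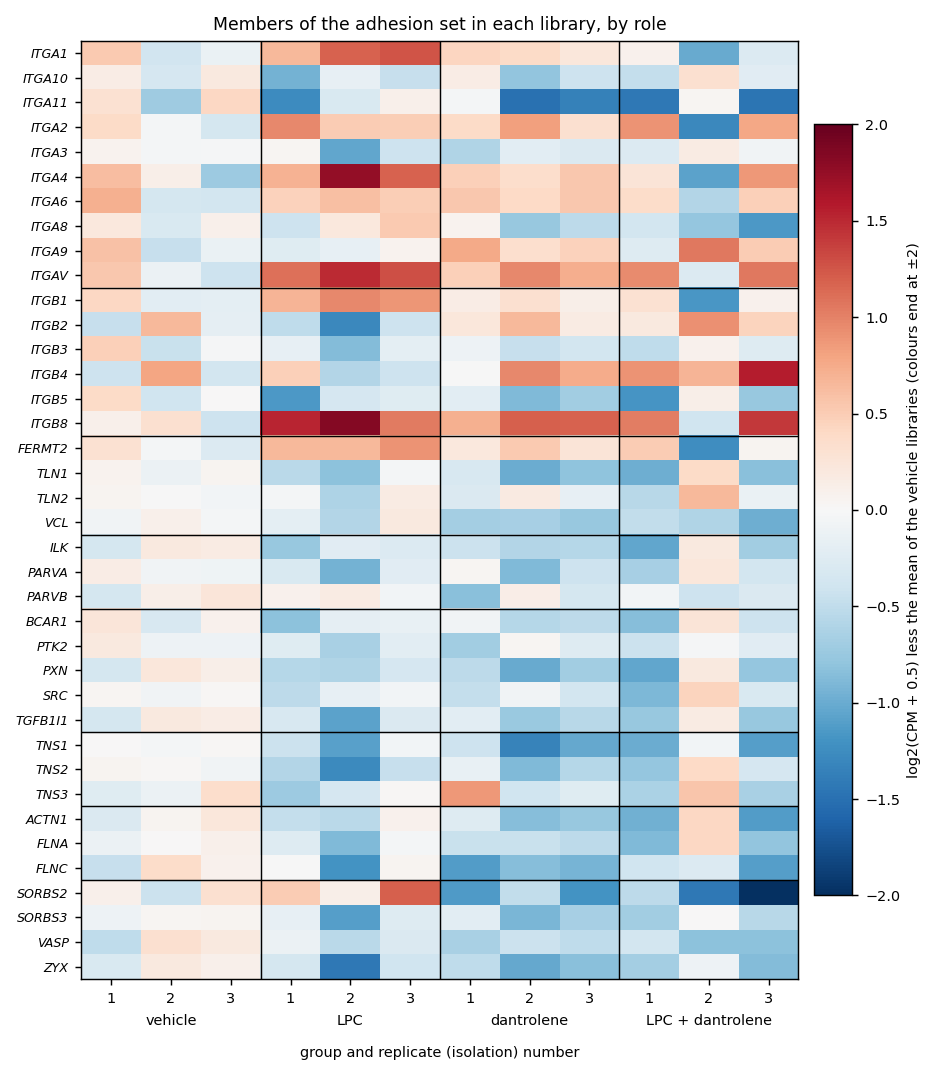
Log2(CPM + 0.5) of the 38 members (rows, ordered by role with black lines between roles) in each of the 12 libraries (columns), less the mean of the 3 vehicle libraries, with red for higher and blue for lower. Rows red with LPC include ITGA1, ITGAV, ITGB1, ITGB8, FERMT2, and SORBS2, while other integrins such as ITGB3 and ITGB5 are blue. Most plaque proteins are blue with dantrolene. Column 2 of LPC + dantrolene differs from columns 1 and 3, being the highest of the 12 libraries for 13 members and the lowest for 6.

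Groups that did not overlap were counted as a description. Between LPC and vehicle, 7 of 38 members were higher without overlap (18.4%, against 16.6% of all genes tested) and 6 were lower (15.8% against 10.6%). The 7 comprised ITGA1, ITGA2, ITGA4, ITGAV, ITGB1, ITGB8, and FERMT2, and the 6 lower ones were PARVA, PTK2, SORBS3, TNS1, TNS2, and ZYX. ITGA2 was near the floor, with 8 to 37 counts per library in these groups. The integrins did not move as a set, as 4 alpha and 4 beta integrins had a log2 fold change below 0 with LPC. Between dantrolene and vehicle, 1 member was higher (ITGB8, 2.63% against 16.1%) and 12 were lower (31.6% against 11.0%). Of these 12, ITGA3 was an integrin, and the others were FLNA, FLNC, ILK, PXN, SORBS2, SORBS3, TLN1, TNS1, TNS2, VCL, and ZYX. Between LPC + dantrolene and vehicle, 0 were higher (against 4.71%) and 4 were lower (10.5% against 5.74%), which were ITGA8, SORBS2, TNS1, and VCL. These counts rest in part on LPC + dantrolene replicate 2. For ITGAV, ITGB4, and ITGB8, for example, replicates 1 and 3 were above all vehicle libraries and replicate 2 was not. For FLNA, replicates 1 and 3 were below all vehicle libraries and replicate 2 was above them. Between LPC + dantrolene and LPC, ITGB2 and ITGB4 were higher (5.26% against 4.86%) and ITGA1, ITGAV, ITGB1, FERMT2, and SORBS2 were lower (13.2% against 4.93%). ITGB2 was near the floor, with 7, 0, and 8 counts in the LPC libraries and 17, 29, and 23 with LPC + dantrolene. Between LPC + dantrolene and dantrolene, ITGA1 was lower (2.63% against 2.17%) and 0 were higher (against 2.54%).

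Ratios of counts of a pair of members within a library do not depend on how libraries are scaled. The ratio of ITGB1 to ITGB5 was 4.77, 5.34, and 4.04 with vehicle, 16.6, 11.5, and 10.2 with LPC, 6.07, 10.9, and 8.29 with dantrolene, and 13.3, 1.93, and 8.41 with LPC + dantrolene. All LPC and all dantrolene libraries were above all vehicle libraries, and LPC + dantrolene replicate 2 was below them. The ratio of ITGAV to ITGB5 was 0.236 ± 0.0575 with vehicle, 0.862 ± 0.217 with LPC, 0.613 ± 0.232 with dantrolene, and 0.671 ± 0.440 with LPC + dantrolene. The ratio of ITGA1 to ITGA11, both of which encode collagen receptors, was 0.137 ± 0.0400, 0.389 ± 0.101, 0.358 ± 0.158, and 0.248 ± 0.164 in the same order, and that of FERMT2 to TLN1 was 0.154 ± 0.0287, 0.354 ± 0.0651, 0.327 ± 0.109, and 0.253 ± 0.190. In each of these 3 ratios, LPC + dantrolene replicates 1 and 3 were above all vehicle libraries and replicate 2 was not. Replicate 2 was within the vehicle range for ITGAV to ITGB5 (0.177) and below it for ITGA1 to ITGA11 (0.0636) and FERMT2 to TLN1 (0.0491). All these pairs were chosen after their values were seen and show unequal change within a pair, with no test.

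Without LPC + dantrolene replicate 2 (13583 genes tested), 3 members were higher and 8 lower with LPC + dantrolene against vehicle, where 12.6% of all genes were called higher and 2.89% lower. ITGAV (log2 fold change 1.00 ± 0.29, adjusted p = 0.00841), ITGB4 (1.25 ± 0.34, adjusted p = 0.00560), and ITGB8 (1.33 ± 0.33, adjusted p = 0.00207) were higher. ITGA11 (−1.47 ± 0.36, adjusted p = 0.00159), ACTN1, ILK, ITGB5, PXN, SORBS2, TLN1, and TNS1 were lower, with log2 fold changes between −1.47 and −0.82. The library is also part of the spread that all comparisons share. Without it LPC raised 6 members, adding ITGB1 (0.89 ± 0.26, adjusted p = 0.0126), FERMT2 (0.78 ± 0.26, adjusted p = 0.0324), and ITGA4 (1.497 ± 0.50, adjusted p = 0.0340), against 11.9% of all genes called higher. Dantrolene then raised ITGAV and ITGB8 and lowered FLNC, SORBS2, and TNS1 (11.2% of all genes higher and 2.09% lower). Against LPC, LPC + dantrolene then lowered ITGA1 and SORBS2 and raised ITGB4 (1.39 ± 0.34, adjusted p = 0.0208), where 0.641% were called lower and 0.390% higher. Of the interaction, ITGA1 remained called (−1.51 ± 0.40, adjusted p = 0.0142) and ITGB8 did not. The labels give no reason to leave the library out.

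**Figure D4:**
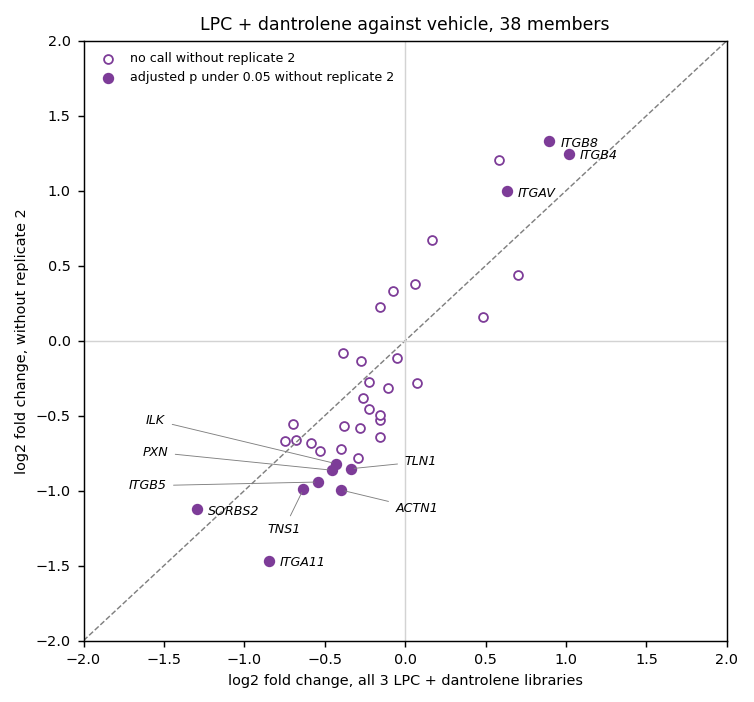
Log2 fold change of the 38 members in LPC + dantrolene against vehicle, with all 3 LPC + dantrolene libraries (x axis) and without replicate 2 (y axis), with a dashed line of equality. The 11 filled points, called without replicate 2, are ITGB8, ITGB4, and ITGAV above 0 and 8 members below 0, and most lie farther from 0 on the y axis than on the x axis.

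The wider adhesion machinery was taken from a list of 76 partners, of which 73 were in the count table and 66 were tested. LPC raised 11 and lowered 0 of the 66 (12 higher and 0 lower at an unadjusted p under 0.05), where 8.54% of all genes tested were called higher and 0.144% lower. Dantrolene raised 8 and lowered 1 (background 7.54% higher and 1.26% lower), and LPC + dantrolene raised 7 and lowered 0 (background 6.23% and 0.900%), with 9 higher and 2 lower at an unadjusted p under 0.05. Most of the list was not called, and its median log2 fold change was −0.27 with LPC, −0.25 with dantrolene, and −0.15 with LPC + dantrolene. Those with the smallest adjusted p with LPC were ARHGAP5, a GTPase-activating protein (log2 fold change 2.58 ± 0.37, adjusted p = 9.35e-07), NEXN, an actin-binding protein of adhesions and the Z-disc (2.44 ± 0.37, adjusted p = 1.74e-06), the kinases of actomyosin contraction ROCK2 (2.53 ± 0.39, adjusted p = 2.37e-06) and ROCK1 (2.19 ± 0.37, adjusted p = 9.36e-06), and the SRC-family kinase YES1 (2.08 ± 0.37, adjusted p = 2.24e-05). All 5 rose with dantrolene as well, by 1.83 to 2.43, and with LPC + dantrolene, by 1.18 to 2.14. ROCK2 measured 17.0, 9.75, and 9.07 CPM with vehicle, 67.3, 72.1, and 68.6 CPM with LPC, 24.5, 77.2, and 34.3 CPM with dantrolene, and 61.1, 15.3, and 68.1 CPM with LPC + dantrolene, and so overlapped vehicle only in LPC + dantrolene replicate 2. LIMS2, a LIM protein of the integrin-linked kinase complex, fell with dantrolene (−1.04 ± 0.35, adjusted p = 0.0462), a call that was lost without each vehicle or dantrolene library in turn. Against LPC and against dantrolene, LPC + dantrolene called 0 partners (3 lower at an unadjusted p under 0.05 against LPC, and 0 against dantrolene), and DESeq2 also called 0. Without LPC replicate 2 or vehicle replicate 2 or 3, LPC raised 6 partners, and without dantrolene replicate 2, dantrolene raised 3. Without vehicle replicate 2 or 3 dantrolene raised 5 and lowered 0, and the count with LPC without vehicle replicate 1 or LPC replicate 1 was 7. The count with LPC + dantrolene was 4 with the block or without vehicle replicate 2 or 3 or LPC + dantrolene replicate 1 or 3, and without LPC + dantrolene replicate 2 it was 12 higher and 2 lower.

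Of the extracellular ligands of integrins, 40 were listed, 37 were in the count table, and 36 were tested. LPC raised POSTN (periostin), and lowered 0 ligands (1 at an unadjusted p under 0.05), against a background of 8.54% higher and 0.144% lower. POSTN measured 35.1, 8.87, and 13.7 CPM with vehicle and 31.4, 98.9, and 44.9 CPM with LPC, so the groups overlapped (log2 fold change 1.60 ± 0.39, adjusted p = 0.00188), and the call was lost with DESeq2 and without vehicle replicate 2 or LPC replicate 2 (adjusted p up to 0.316). Dantrolene lowered 5 of the 36 ligands and raised 0 (2 at an unadjusted p under 0.05), against a background of 1.26% lower and 7.54% higher. These were SPP1 (osteopontin, −1.51 ± 0.34, adjusted p = 0.00108), CCN2 (connective tissue growth factor, −1.34 ± 0.37, adjusted p = 0.00942), TNC (tenascin C, −1.09 ± 0.34, adjusted p = 0.0248), TGFB3 (−1.12 ± 0.35, adjusted p = 0.0250), and NPNT (nephronectin, −1.32 ± 0.43, adjusted p = 0.0362). SPP1 measured 34.9, 31.7, and 22.3 CPM with vehicle, 28.5, 20.7, and 24.1 CPM with LPC, 7.28, 13.0, and 10.9 CPM with dantrolene, and 14.5, 10.2, and 16.6 CPM with LPC + dantrolene. All its libraries with dantrolene were below all libraries without it, and its fall with dantrolene was called in all 14 alternatives. LPC + dantrolene lowered SPP1 (−1.10 ± 0.34, adjusted p = 0.0271) and CCN2 (−1.22 ± 0.37, adjusted p = 0.0224) against vehicle, where 0.900% of all genes were called lower. For LPC + dantrolene against LPC or dantrolene and for the interaction 0 ligands were called by edgeR or DESeq2, with 6, 1, and 5 at an unadjusted p under 0.05 in edgeR. The 5 ligands with dantrolene became 2 with the block or with DESeq2, 3 without vehicle replicate 2, and 1 with total counts or without vehicle replicate 3 or dantrolene replicate 2 or 3. The 2 with LPC + dantrolene became 0 with the block, with total counts, or without LPC + dantrolene replicate 1 or 3, 1 with DESeq2 or without any 1 vehicle library, and 9 without LPC + dantrolene replicate 2.

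The rows for ITGA5, ITGA7, LIMS1, and ACTN4 carried no symbol in the count table, were identified from a table of gene names by their identifiers, and so are not among the 38 members. ITGA7, the alpha chain of a laminin receptor of muscle, fell with dantrolene. It measured 128, 203, and 212 CPM with vehicle, 82.0, 152, and 189 CPM with LPC, 79.0, 62.6, and 54.0 CPM with dantrolene, and 71.9, 119, and 40.4 CPM with LPC + dantrolene. All libraries with dantrolene were below all vehicle libraries, and LPC overlapped vehicle. The log2 fold change was −1.47 ± 0.34 with dantrolene (adjusted p = 0.00160, called in all 14 alternatives) and −1.23 ± 0.34 with LPC + dantrolene (adjusted p = 0.0111). The second call was lost in 5 of 13 alternatives, with only the groups compared in the fit and without vehicle replicate 2 or 3 or LPC + dantrolene replicate 1 or 3 (adjusted p up to 0.281). ITGA5, the alpha chain of the classical fibronectin receptor, had log2 fold changes of −0.40 ± 0.33, −0.58 ± 0.33, and −0.40 ± 0.33 in the 3 comparisons with vehicle, and it was not called. LIMS1 (PINCH1) was 0.74 ± 0.33 with LPC (adjusted p = 0.208), and ACTN4 was −0.75 ± 0.34 with dantrolene (adjusted p = 0.209). Without LPC + dantrolene replicate 2, LIMS1 was called higher with LPC (0.80 ± 0.25, adjusted p = 0.0217). ACTN4 was then called lower with LPC + dantrolene against vehicle (−1.08 ± 0.30, adjusted p = 0.00686). ITGA7 was then called lower for LPC + dantrolene against LPC (−1.34 ± 0.32, adjusted p = 0.0169), which it was not with all libraries (−0.88 ± 0.34, adjusted p = 0.427).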

How the data were processed

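Poly-A selected RNA of paVICs was sequenced in 12 libraries, 4 groups of 3. The authors counted reads on pig genes, adjusted the counts for isolation with ComBat, and deposited whole-number counts that are not scaled for library size. The paper's methods name STAR as the aligner, whereas the submitters' processing notes list HISAT2 2.0.5, R 4.1.1, DESeq2 1.32.0, and the build Sscrofa11.1. The 4 tables of the authors' own DESeq2 comparisons (mean levels, fold changes, and p-values) were not used. Counts from before the adjustment were not analysed here.

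The analysis used edgeR 4.0.16 under R 4.3.3. Libraries were scaled by TMM over the genes that filterByExpr kept, which were fitted in 1 quasi-likelihood model of all 12 libraries with group as the term, and p-values were adjusted by the Benjamini-Hochberg method over all genes tested. The members and lists were chosen with earlier results of these data known. Full statistics were given for members called in at least 1 comparison and for the member with the most counts in each of 8 roles, with the others by range and count. Of the partner and ligand lists, the genes named were those called, up to 5 per direction with the smallest adjusted p. Gene positions come from a RefSeq gene table of Sscrofa11.1, matched by symbol.

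The labels give replicate numbers but not isolations. Same-numbered libraries were taken as pairs from the same isolation, because the paper describes a single replicate per group in each experiment. Their deviations from the group means correlated with a median of −0.161 (range −0.650 to 0.250), an outcome that the adjustment for isolation fixes. Replicates of a group correlated at 0.916 to 0.983 on log2 CPM. The alternatives were the isolation as a block, a fit of the compared groups by themselves, DESeq2 1.42.0, scaling by RLE or by total counts, a filter of 10 counts per sample or none, and each library left out.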

Additional observations from a re-analysis of the deposited data

Results flagged for a closer look

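For 9 genes the effect of LPC in the presence of dantrolene was called different from its effect without dantrolene, by the interaction term of edgeR's quasi-likelihood fit with Benjamini-Hochberg adjustment. Among the members these were ITGA1, where the difference of the effects was −1.69 on the log2 scale, and ITGB8, where it was −1.75. Among the adhesion partners they were NEXN (−3.09), ARHGAP5 (−2.86), ROCK2 (−2.45), ROCK1 (−2.37), YES1 (−2.28), LPP (−1.78), and CAV1 (−1.55). These are 2 of 38 members and 7 of 66 partners, where 4.49% of all genes tested were called lower for this term. Without LPC replicate 2 the interaction was called for 1 partner, and without dantrolene replicate 2 for 2. For all 9 genes, LPC + dantrolene replicate 2 was the lowest of its group, as with ROCK2 (61.1, 15.3, and 68.1 CPM). The ITGB8 call was lost without that library (adjusted p = 0.0575 by edgeR), with the block, and with DESeq2. The ITGA1 call was kept without that library (adjusted p = 0.0142 by edgeR). The outcome for the 7 partners without it is not given here. Groups of 3 are too small to test single libraries for standing apart.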

How the results depend on the processing

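None of the 9 calls of members held under every alternative, and none of these 9 changed its direction in any of them. With only the groups compared in the fit, 6 members were called with LPC (3 in the report), 7 with dantrolene (1), 0 with LPC + dantrolene (1), and 1 for LPC + dantrolene against LPC (2). With total counts alone the counts were 0 with dantrolene, 0 with LPC + dantrolene, 0 against LPC, and 1 for the interaction (2). With DESeq2 they were 0 with dantrolene and 1 for the interaction, and with at least 10 counts in every sample 2 with dantrolene. RLE size factors gave 1 call with dantrolene, but it was ITGB8 higher instead of FLNC lower.

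With the isolation as a block, the pairs gave 0 calls with dantrolene, 0 with LPC + dantrolene, 1 against LPC, and 1 for the interaction. The block kept ITGAV and ITGB8 with LPC, SORBS2 against LPC, and the interaction of ITGA1.

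Leaving out 1 library of the groups compared gave 0 to 3 calls with LPC, 0 to 2 with dantrolene, 0 to 11 with LPC + dantrolene, 0 to 3 against LPC, 0 against dantrolene, and 0 to 3 for the interaction. Leaving out LPC + dantrolene replicate 2, an alternative added after seeing the data, gave 6 calls with LPC and 5 with dantrolene.

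Offsets for GC content and length, with or without the block, were not run because the reference used here gave neither, and a fit of only the groups compared does not exist for the interaction. With 3 libraries per group, small changes of the members with few counts (ITGA2, ITGA4, and ITGB2) were not detectable.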
